A study of Mus musculus with 6 samples.

Results

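The genes of the proteasome and its interferon-inducible form were examined in the livers of Acsm3 knockout (KO) and wild-type control mice. Members were chosen by symbol (Psma, Psmb, Psmc, Psmd, Psme, Psmf or Psmg followed by a digit), with pseudogenes left out, and 50 of 28450 listed genes met this rule. The inducible genes Psmb8, Psmb9, Psmb10, Psme1 and Psme2 were described apart from the other 45. RNA sequencing of poly(A)-selected RNA compared 3 KO livers with 3 Control livers, each from a separate male mouse of 12 weeks on a normal diet. Acsm3 is a mitochondrial enzyme that activates medium-chain fatty acids, and the comparison asks how the hepatic transcriptome differs when it is disrupted. The labels do not say how the gene was disrupted.

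The proteasome is the protease that degrades proteins tagged with ubiquitin. Its barrel-shaped 20S core holds outer rings of alpha subunits and inner rings of beta subunits, and Psmb5, Psmb6 and Psmb7 are the beta subunits that cut peptide bonds. The 19S regulatory particle caps the core: its ATPases (Psmc genes) unfold substrates, and its other subunits (most Psmd genes) bind and remove ubiquitin. Under interferon-gamma the catalytic seats are taken by Psmb9, Psmb10 and Psmb8, which gives the immunoproteasome, and Psme1 and Psme2 form the PA28 cap. Both are known for making peptides that MHC class I molecules present, and they are abundant in immune cells.

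The steps between low FPKM values (fragments per kilobase of exon, relative to library size) implied totals of 15300000 to 16100000 fragments in KO libraries and 15700000 to 16300000 in Control libraries. Acsm3 was at 0.668, 2.92 and 1.08 FPKM in KO livers 1, 2 and 3, against 33.2, 34.4 and 32.2 FPKM in Control livers 1, 2 and 3. The hepatocyte markers Alb and Ttr were abundant in every liver. Fold changes below are differences of log2(FPKM + 1), KO minus Control, ± SE from limma with 3 mice per group. On this scale, differences in weakly expressed genes come out smaller than they are. A gene passed at a Benjamini-Hochberg adjusted p under 0.05 over the 10996 genes that averaged 1 FPKM or more. Among those genes the median fold change was 0.13, and rescaling each library to the median ratio of its genes shifted this median by -0.13.

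Of the 50 proteasome genes, 47 averaged 1 FPKM or more. In KO livers 4 of them rose, namely the 19S subunits Psmd8, Psmd11 and Psmd7 and the 19S chaperone Psmd5, and 0 fell. Of the 47, 9 had an unadjusted p under 0.05 by limma, against 3887 of the 10996 tested genes. The 4 higher genes are 8.51% of the 47 tested, against 13.9% of all tested genes called higher, and the 0 lower genes compare with 2.61% of all tested genes called lower. The median fold change of the 47 genes was 0.07. The KO livers lay wholly above the Control livers for 14 of the 47 (29.8%, against 33.9% of all tested genes) and wholly below them for 3 (6.38%, against 7.91%). After median-ratio rescaling 1 of the 47 was higher (7.57% of all tested genes) and 2 were lower (6.7% of all tested genes), and 19 genes that passed in neither fit changed sign. These shares are near or under the background, so the count of 4 shows nothing particular to proteasome genes as a group.

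Psmd8, a subunit of the 19S lid that incorporates late in lid assembly, was at 47.8, 50.3 and 39.6 FPKM in KO livers 1, 2 and 3, against 33.0, 29.1 and 25.2 FPKM in Control livers 1, 2 and 3. Each KO liver was above each Control liver, and replicate 3 was the lowest of its group in both. The means were 45.9 ± 5.60 FPKM in KO and 29.1 ± 3.91 FPKM in Control livers (SD, n = 3 each), a ratio of 1.58. Its fold change was 0.64 ± 0.13 (limma, adjusted p = 0.0254), the largest of the tested proteasome genes in size. Psmd8 was also the member that stayed higher after median-ratio rescaling (0.48, adjusted p = 0.028 by limma).

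Psmd11, a lid subunit that clamps the lid onto the base and the core, was at 16.3, 14.6 and 15.4 FPKM in KO livers, against 12.1, 10.5 and 11.6 FPKM in Control livers. The lowest KO liver exceeded the highest Control liver. Its fold change was 0.41 ± 0.08 (limma, adjusted p = 0.0239). Psmd7, the lid subunit that pairs with the deubiquitinase Psmd14, was at 33.8 FPKM in each of the 3 KO livers, against 27.9, 24.3 and 26.0 FPKM in Control livers. The KO values had an SD of 0.0168 FPKM, and they did not overlap the Control values. They rested on 1190, 1170 and 1234 fragments, and so small an SD over 3 livers may be a coincidence of scaling. Its fold change was 0.37 ± 0.07 (limma, adjusted p = 0.0254). Psmd5, a chaperone of base assembly that is not part of the finished particle, was at 5.57, 5.67 and 5.45 FPKM in KO livers, against 4.76, 3.97 and 4.23 FPKM in Control livers. The groups did not overlap here either, and the fold change was 0.31 ± 0.08 (limma, adjusted p = 0.0466).

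These 4 calls depended on which mice were in the fit. Without KO 1, KO 2, Control 2 or Control 3, Psmd8 had adjusted p of 0.0757 to 0.0871, Psmd11 of 0.0645 to 0.0807 and Psmd7 of 0.0722 to 0.0866 (limma). Psmd8, Psmd11 and Psmd7 kept their calls without KO 3 or Control 1. Psmd5 passed in none of the 6 fits that left out 1 mouse (adjusted p 0.0575 to 0.141 by limma). After median-ratio rescaling Psmd11, Psmd7 and Psmd5 did not pass (adjusted p = 0.077, 0.124 and 0.172 by limma), with fold changes of 0.25, 0.21 and 0.17. With no filter on low values Psmd8 (adjusted p = 0.0609) and Psmd5 (adjusted p = 0.0923) did not pass by limma. No 50-base window of Psmd8 or Psmd7 transcripts occurs in another gene, while 18.9% of those of Psmd11 also occur in A730017L22Rik.

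**Figure D1:**
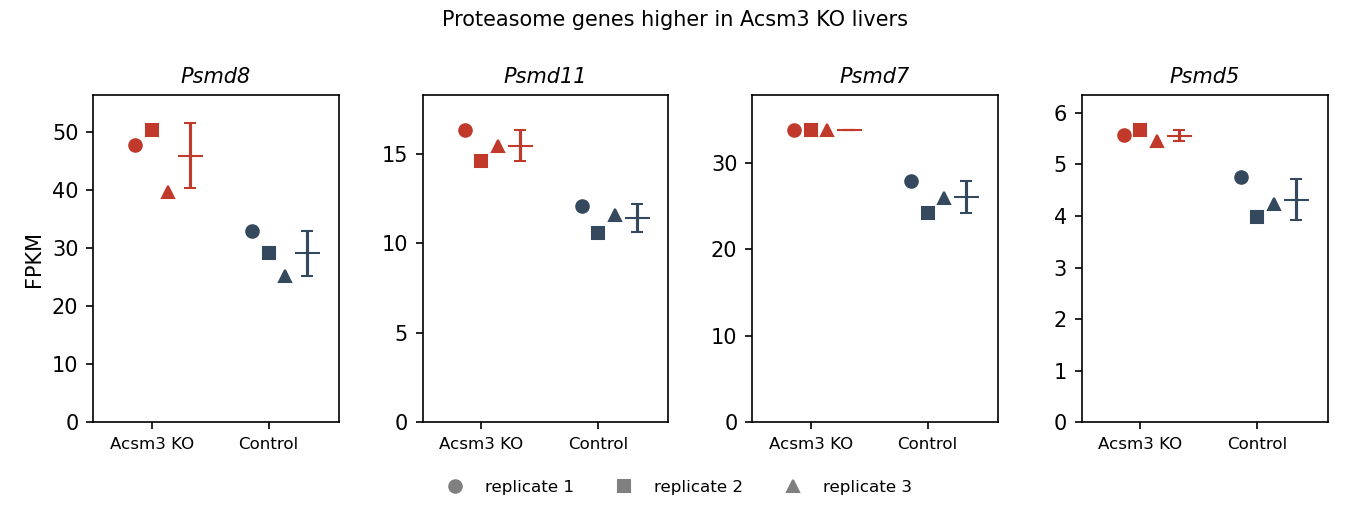
FPKM of Psmd8, Psmd11, Psmd7 and Psmd5 (y axes, linear from 0, a separate scale per gene) in the 3 Acsm3 KO livers (red, left) and the 3 Control livers (dark blue, right), with marker shape for the replicate number and bars for the mean ± SD. In each panel every KO liver lies above every Control liver, and the 3 Psmd7 values of KO livers coincide near 33.8 FPKM.

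The sequence ahead of the start site is shown for the 3 of these genes with an entry in the RefSeq promoter table (GRCm38.p6), because they are the members that differed between genotypes. Psmd7 has no entry there. Each run is given 5′ to 3′ on the strand of the gene, in lower case, and leaves out annotated exons. Capitals mark the GC box GGGCGG, searched on both strands; the window shown here carried 1 match in each gene. Psmd11 lies at chr11:80428615-80473248 on the plus strand and Psmd8 at chr7:29174188-29180701 on the minus strand. Psmd5 lies at chr2:34849734-34874968 on the minus strand and Psmd7 at chr8:107580381-107588464 on the minus strand (GRCm38). The runs cover chr11:80428365-80428614 for Psmd11, chr7:29180702-29180923 for Psmd8 and chr2:34870963-34871107 for Psmd5. The run of Psmd5 lies inside the gene interval given above, because the RefSeq start site used here differs from the end of that interval.
Psmd11: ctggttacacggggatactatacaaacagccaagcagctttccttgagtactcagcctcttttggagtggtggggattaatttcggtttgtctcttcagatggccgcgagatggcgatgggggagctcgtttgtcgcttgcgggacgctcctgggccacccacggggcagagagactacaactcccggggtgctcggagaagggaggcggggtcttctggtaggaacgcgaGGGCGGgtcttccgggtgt
Psmd8: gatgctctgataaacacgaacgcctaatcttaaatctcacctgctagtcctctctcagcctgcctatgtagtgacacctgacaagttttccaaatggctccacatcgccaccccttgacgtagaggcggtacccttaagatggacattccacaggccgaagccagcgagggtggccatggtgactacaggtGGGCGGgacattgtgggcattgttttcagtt
Psmd5: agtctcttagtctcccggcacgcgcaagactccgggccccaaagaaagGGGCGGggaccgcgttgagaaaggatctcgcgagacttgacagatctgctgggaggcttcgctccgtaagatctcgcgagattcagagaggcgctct

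Of 42 proteasome genes with an entry, 22 (52.4%) held a GC box in the 250 bases ahead of the start, against 35.4% of 27025 genes in the table. The box CCAAT, also searched on both strands, was in 15 (35.7%) of them, against 37.5% of all genes. The letters of an antioxidant response element, TGANNNNGC, stood in 17 (40.5%) of them, against 38.7% of all genes. An interferon-stimulated response element (TTTC, a pair of any bases, then TTTC) was matched in 3 (7.14%, against 3.46%) and a gamma-activated site (TTCNNNGAA) in 2 (4.76%, against 8.13%). The response element was matched in Psmb3, Psmd4 and Psmd9, and the gamma-activated site in Psmb8 and Psmg1. Of the inducible genes, Psmb8 alone held a match to either. A match describes letters only.

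None of the 14 constitutive 20S subunits passed in either direction (limma), against 13.9% of all tested genes called higher and 2.61% called lower. Of the 14, 1 had an unadjusted p under 0.05 by limma, against 3887 of the 10996 tested genes. The median fold change of the 14 was -0.00, so they stood 0.13 below the median of all tested genes. The 7 alpha subunits, which form the gate of the core, had summed levels of 242, 239 and 258 FPKM in KO livers, against 244, 230 and 242 FPKM in Control livers. Among them Psma1 had the largest fold change, with 29.1, 31.4 and 34.7 FPKM in KO livers, against 28.3, 26.7 and 27.1 FPKM in Control livers (0.20 ± 0.08, adjusted p = 0.133 by limma). Its KO livers were all above its Control livers, as were those of Psma3 and Psma5. Of the 50-base windows of Psma5, 55.4% occur in transcripts of another gene, and of those of Psma3 22.0%, so their levels are uncertain. The other alpha genes overlapped between the groups and lay between -0.08 for Psma7 and 0.01 for Psma4 and Psma6.

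The 7 constitutive beta genes summed to 332, 310 and 333 FPKM in KO livers, against 356, 332 and 320 FPKM in Control livers. Psmb1, a structural beta subunit, was the most abundant proteasome gene, at 93.1, 85.5 and 102 FPKM in KO livers, against 104, 105 and 101 FPKM in Control livers. KO 3 lay within the Control range and the other KO livers under it (-0.15 ± 0.08, adjusted p = 0.249 by limma). Psmb3, another structural subunit, was at 21.9, 19.8 and 21.8 FPKM in KO livers, against 24.9, 22.7 and 24.7 FPKM in Control livers. All KO livers were below all Control livers, and the fold change was -0.18 ± 0.08 (adjusted p = 0.146 by limma). After median-ratio rescaling Psmb3 passed as lower (-0.34, adjusted p = 0.0464 by limma). Of its 50-base windows, 55.8% occur in transcripts of another gene, so its level is uncertain.

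Of the constitutive catalytic subunits, Psmb6, with the caspase-like site, was at 37.5, 35.9 and 38.5 FPKM in KO livers, against 42.4, 39.8 and 41.6 FPKM in Control livers. The KO livers again lay wholly below the Control livers, but the difference did not pass (-0.14 ± 0.07, adjusted p = 0.179 by limma). Psmb5, with the chymotrypsin-like site, was at 62.1, 60.8 and 65.7 FPKM in KO livers, against 59.8, 52.9 and 56.4 FPKM in Control livers. Here the KO livers lay above the Control livers (0.16 ± 0.08, adjusted p = 0.190 by limma), and 57.1% of its 50-base windows are shared with other transcripts. Psmb7, with the trypsin-like site, overlapped between the groups (-0.05 ± 0.08, adjusted p = 0.672 by limma). Of its 50-base windows, 28.1% also occur in Nek6, which overlaps it on the other strand. Psmb4 varied far more among mice than other core genes, at 57.8, 46.0 and 39.4 FPKM in KO livers, against 61.8, 49.7 and 35.2 FPKM in Control livers. Replicate 1 was the highest and replicate 3 the lowest in both groups, and the groups overlapped (-0.02 ± 0.22, adjusted p = 0.969 by limma).

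The 6 ATPases of the 19S base did not pass in either direction, against 13.9% of all tested genes called higher and 2.61% called lower. Of the 6, 0 had an unadjusted p under 0.05 by limma, against 3887 of the 10996 tested genes. The 6 ATPases summed to 213, 215 and 234 FPKM in KO livers, against 228, 213 and 222 FPKM in Control livers. Their median fold change was 0.01. Psmc4 had the largest, with 33.7, 32.9 and 34.9 FPKM in KO livers, against 32.8, 30.0 and 29.9 FPKM in Control livers (0.13 ± 0.07, adjusted p = 0.242 by limma). Its groups were separated by a narrow margin, and Psmc2 was the other ATPase with no overlap. Psmc1, the most abundant ATPase, lay on the other side of 0 (-0.08 ± 0.07, adjusted p = 0.446 by limma).

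The 11 other 19S subunits held 3 of the 4 genes that passed. Psmd8, Psmd11 and Psmd7 rose (27.3% of the 11, against 13.9% of all tested genes), and the median fold change of the 11, these 3 included, was 0.16. The KO livers lay above the Control livers for 6 of the 11 (54.5%, against 33.9% of all tested genes). Their summed level, without rescaling and with the 3 passing genes included, was 317, 321 and 323 FPKM in KO livers. It was 281, 263 and 274 FPKM in Control livers, without overlap, and this separation depends on the scaling of the libraries. Psmd2, the large base subunit that docks ubiquitin-like carriers, was at 51.1, 51.2 and 55.3 FPKM in KO livers, against 45.2, 44.0 and 44.9 FPKM in Control livers. Every KO value exceeded every Control value, yet the adjusted p was 0.0601 (0.23 ± 0.07, limma), and 26.4% of the 50-base windows of Psmd2 are shared with other transcripts. Psmd14, the deubiquitinase of the lid, was at 16.8, 18.0 and 17.3 FPKM in KO livers, against 15.1, 14.5 and 14.8 FPKM in Control livers. Again the groups were apart, and the adjusted p was 0.0625 (0.22 ± 0.06, limma), or 0.0498 with a filter at a mean of 5 FPKM. The ubiquitin receptor Psmd4 was also without overlap at 0.11 ± 0.07 (adjusted p = 0.312 by limma). Of the remaining subunits, Psmd1, Psmd3, Psmd6, Psmd12 and Psmd13 overlapped between the groups, with fold changes of -0.01 for Psmd3 to 0.16 for Psmd1. After median-ratio rescaling the median of the 11 was 0.00, and Psmd8 was the 1 that passed.

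**Figure D2:**
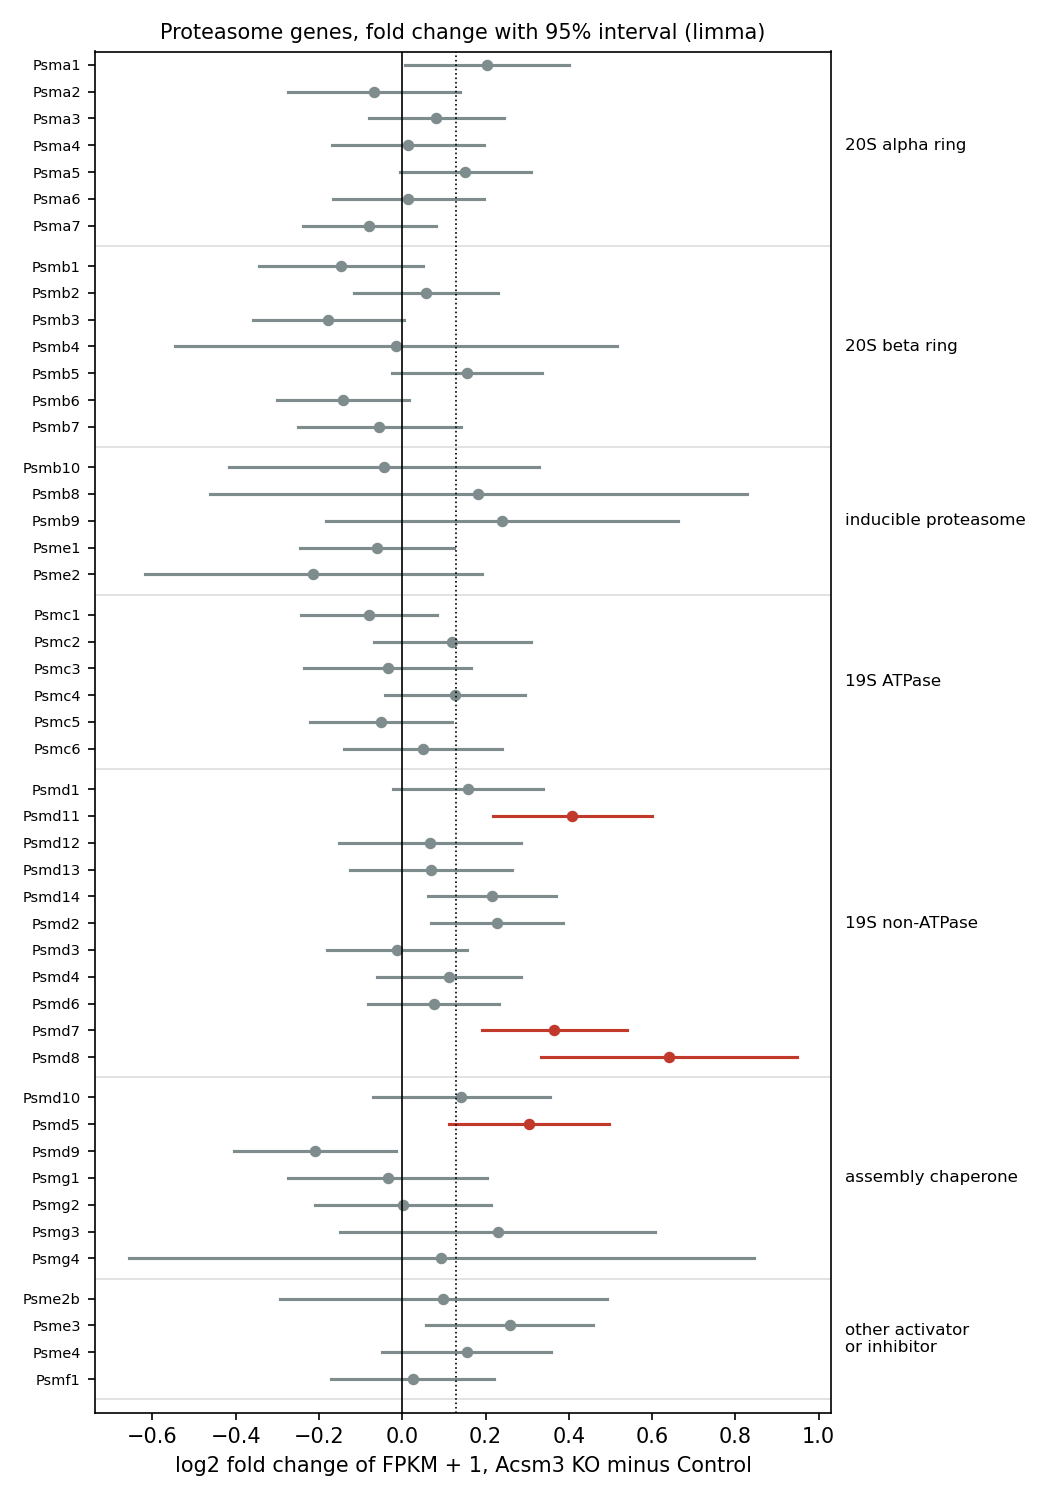
Log2 fold change of FPKM + 1 (x axis, Acsm3 KO minus Control, 3 livers each) with its 95% interval from limma for the 47 tested proteasome genes, grouped by role. Red marks the 4 genes that passed at an adjusted p under 0.05, the solid line is 0 and the dotted line is the median of all tested genes (0.13). The passing genes sit in the 19S non-ATPase and chaperone groups. The inducible genes have intervals that include 0, wide for all but Psme1.

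The 7 dedicated assembly factors split in direction. Psmd5 rose, as described above. Psmd9, also a chaperone of the base, was at 5.11, 5.84 and 4.93 FPKM in KO livers, against 6.09, 6.23 and 6.47 FPKM in Control livers. All KO livers were below all Control livers, and the fold change of -0.21 ± 0.08 did not pass (adjusted p = 0.118 by limma), though it did after median-ratio rescaling (-0.35, adjusted p = 0.0403 by limma). Exons of Psmd9 share 1849 bp with the opposite-strand Gm26745, and the labels do not say whether the libraries kept strand. Psmd10, known as gankyrin, overlapped between the groups (0.14 ± 0.09, adjusted p = 0.300 by limma). Of the chaperones of the core, Psmg1, Psmg2, Psmg3 and Psmg4 all overlapped. Psmg4 spread most of all tested members, at 9.37, 5.53 and 4.01 FPKM in KO livers, against 6.72, 6.94 and 3.55 FPKM in Control livers, and rested on as few as 31 fragments in a mouse.

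Of the activators and inhibitors outside the inducible set, none passed. Psme3, which forms a nuclear cap that does not need ubiquitin, was at 21.6, 22.4 and 22.8 FPKM in KO livers, against 20.4, 18.2 and 16.9 FPKM in Control livers. The KO livers were all higher (0.26 ± 0.08, adjusted p = 0.0784 by limma). Psme4, the large single-chain activator, was at 0.16 ± 0.09 (adjusted p = 0.239 by limma), and Psmf1, an inhibitor of the core in vitro, at 0.02 ± 0.08 (adjusted p = 0.860 by limma). Psme2b, at 0.10 ± 0.17 (adjusted p = 0.707 by limma), shares 69.3% of its 50-base windows with other transcripts, most of them with Psme2, so fragments of these genes may have been counted to either one.

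The 3 other genes that met the symbol rule were below the filter and were not tested. Psma8, the testis form of an alpha subunit, was at 0.569, 0.656 and 0.548 FPKM in KO livers, against 0.361, 0.373 and 0.451 FPKM in Control livers. Psmb11, the catalytic subunit of thymic cortex, was listed at 0 in all 6 livers. Psmc3ip, which is named for a partner protein and acts in meiotic recombination, had means of 0.293 FPKM in KO and 0.241 FPKM in Control livers.

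None of the 5 inducible genes passed in either direction, against 13.9% of all tested genes called higher and 2.61% called lower. Of the 5, 0 had an unadjusted p under 0.05 by limma, against 3887 of the 10996 tested genes. For each of the 5 the groups overlapped, while KO livers lay wholly above for 33.9% of all tested genes and wholly below for 7.91%. Whether these counts differ from the background was not tested. The median fold change of the 5 inducible genes was -0.04, against 0.13 for all tested genes, and after median-ratio rescaling it was -0.20. Psmb8, the inducible chymotrypsin-like subunit (chr17:34197721-34201454, plus strand), was at 6.85, 6.69 and 4.20 FPKM in KO livers, against 6.08, 6.49 and 3.05 FPKM in Control livers. The pair of replicates numbered 3 was the lowest of each group and lay far under the rest. The difference was 0.18 ± 0.27, with a 95% interval of -0.46 to 0.83 (adjusted p = 0.665 by limma).

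Psmb9, the inducible subunit of the caspase-like seat (chr17:34181988-34187764, minus strand), was at 4.35, 3.96 and 2.80 FPKM in KO livers, against 2.91, 3.76 and 2.30 FPKM in Control livers. Of the KO livers, 1 and 2 were above every Control liver, and KO 3 was below Control 1 and Control 2. The difference was 0.24 ± 0.18, with an interval of -0.18 to 0.66 (adjusted p = 0.374 by limma). Psmb9 shares 212 bp of exon with Tap1 on the other strand, and Psmb8 shares 498 bp with the antisense Gm20496, so part of their fragments cannot be assigned without strand. Psmb10, the inducible trypsin-like subunit (chr8:105935735-105938444, minus strand), was at 14.9, 12.6 and 11.2 FPKM in KO livers, against 16.3, 13.0 and 11.01 FPKM in Control livers. Its order over the replicate numbers was the same in both groups, and the difference was -0.04 ± 0.16, with an interval of -0.42 to 0.33 (adjusted p = 0.870 by limma).

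The PA28 genes had negative fold changes that did not pass, as Psmb10 had. Psme1 (chr14:55578123-55581529, plus strand) was at 24.4, 25.3 and 22.3 FPKM in KO livers, against 25.8, 25.7 and 23.6 FPKM in Control livers. It was the steadiest of the inducible genes, and its interval of -0.25 to 0.12 was the narrowest (-0.06 ± 0.08, adjusted p = 0.609 by limma). Psme2 (chr14:55587441-55591113, minus strand) was at 13.6, 11.1 and 8.66 FPKM in KO livers, against 15.1, 11.2 and 12.4 FPKM in Control livers. KO 3 was the lowest of the 6, and the difference was -0.21 ± 0.17, with an interval of -0.62 to 0.19 (adjusted p = 0.409 by limma). Its 50-base windows are shared at 59.3% with Psme2b.

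Of the inducible genes, Psmb8, Psmb9, Psmb10 and Psme2 spread more among mice of 1 group than most other proteasome genes, and Psme1 did not. The median SD within groups, on the log2(FPKM + 1) scale, was 0.25 for the 5 inducible genes, 0.08 for the other 42 tested proteasome genes and 0.13 for all tested genes. Psme1 was at 0.08, and Psmg4 (0.49), outside the inducible set, was above all 5. KO 3 was the lowest KO liver for each of the 5, and Control 3 was the lowest Control liver for Psmb8, Psmb9, Psmb10 and Psme1. This was not particular to the inducible genes. KO 3 was also the lowest KO liver for Psmb4, Psmd5, Psmd6, Psmd8, Psmd9, Psmd10, Psmf1 and Psmg4, while KO 1 or KO 2 was the lowest for the other tested members. Psmb8 rested on 162 to 361 fragments and Psmb9 on 132 to 248 fragments per mouse. Without KO 3 the fold changes were 0.38 for Psmb8, 0.39 for Psmb9, 0.05 for Psmb10, -0.01 for Psme1 and -0.06 for Psme2, and none passed (adjusted p 0.143 to 0.919 by limma).

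**Figure D3:**
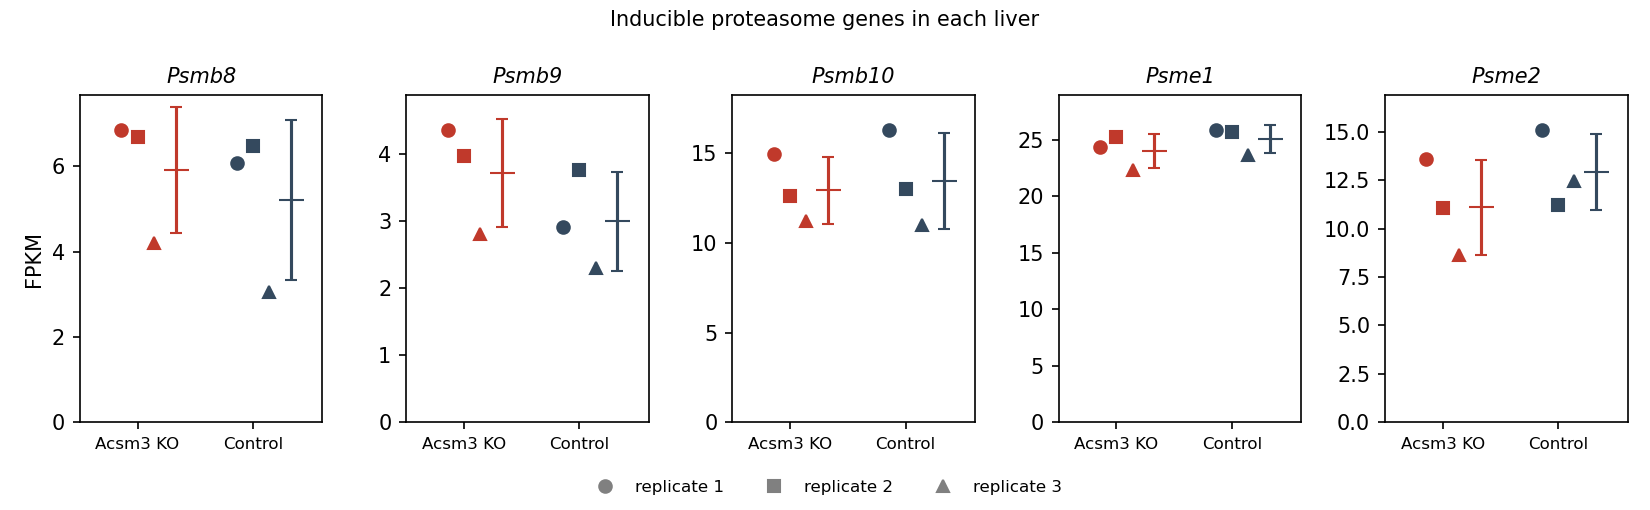
FPKM of the 5 inducible proteasome genes (y axes, linear from 0, a separate scale per gene) in the 3 Acsm3 KO livers (red, left) and the 3 Control livers (dark blue, right), with marker shape for the replicate number and bars for the mean ± SD. The groups overlap in every panel, and the triangle of replicate 3 is the lowest KO value in all 5.

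Each inducible catalytic subunit was set against the constitutive subunit whose seat it takes. Psmb9 stood at 11.6%, 11.1% and 7.28% of the FPKM of Psmb6 in KO livers, against 6.86%, 9.46% and 5.52% in Control livers. KO 1 and KO 2 were above all Control livers and KO 3 was not. The log2 ratio was 0.46 higher in KO livers (two-sided exact permutation test over 3 and 3 livers, p = 0.2, adjusted p = 0.6 over the 3 pairs), and 0.28 without Control 3 to 0.67 without KO 3. Psmb10 stood at 64.2%, 49.0% and 40.4% of Psmb7 in KO livers, against 62.5%, 49.5% and 40.2% in Control livers (log2 difference 0.01, exact permutation p = 0.9, adjusted p = 0.9). Psmb8 stood at 11.03%, 10.99% and 6.39% of Psmb5 in KO livers, against 10.2%, 12.3% and 5.40% in Control livers (log2 difference 0.07, exact permutation p = 0.8, adjusted p = 0.9). With 3 livers a group this exact permutation test cannot go below p = 0.1. The inducible subunits made up 17.5%, 15.97% and 12.1% of the summed catalytic FPKM in KO livers, against 16.5%, 16.3% and 11.5% in Control livers. In both groups replicate 3 had the lowest share, and the groups overlapped.

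Genes that act with the proteasome were taken from lists of partners, ubiquitin genes, MHC class I processing and interferon-gamma signalling. Of 25 tested partners and cofactors, 8 rose and 0 fell (32% higher, against 13.9% of all tested genes; median 0.15). Zfand2a, a stress-induced proteasome-binding protein, was at 8.10, 8.50 and 7.20 FPKM in KO livers, against 4.06, 4.08 and 3.81 FPKM in Control livers, with no overlap (0.84 ± 0.08, adjusted p = 0.00564 by limma). Nfe2l2, the transcription factor NRF2, was at 31.5, 25.0 and 31.1 FPKM in KO livers, against 20.3, 16.1 and 15.1 FPKM in Control livers, again apart (0.74 ± 0.14, adjusted p = 0.0213 by limma). Nfe2l2 did not pass without KO 1, Control 2 or Control 3 (adjusted p 0.0655 to 0.0760 by limma). The proteasome-bound deubiquitinase Usp14 (0.33 ± 0.08) and the shuttle protein Ubqln1 (0.31 ± 0.08) passed with adjusted p of 0.0407 and 0.0385 by limma, and neither passed in any of the 6 fits without 1 mouse. After median-ratio rescaling 2 of the 25 were higher and 1 was lower, against 7.57% and 6.7% of all tested genes. Nfe2l1, the factor that drives proteasome genes when the protease is inhibited, was at 33.7, 33.4 and 40.3 FPKM in KO livers, against 34.9, 33.0 and 32.5 FPKM in Control livers, and the groups overlapped (0.09 ± 0.09, adjusted p = 0.519 by limma).

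Of 20 tested ubiquitin genes, 2 rose and 0 fell (10% higher, against 13.9% of all tested genes). Ubd, a cytokine-induced ubiquitin-like protein that sends its targets to the proteasome, was at 9.31, 11.4 and 6.04 FPKM in KO livers, against 1.05, 0.543 and 0.205 FPKM in Control livers. The lowest KO liver was far above the highest Control liver (2.63 ± 0.26, adjusted p = 0.00566 by limma), and Ubd passed in all 6 fits without 1 mouse and after median-ratio rescaling. The conjugating enzyme Ube2l3 was at 0.25 ± 0.07 (adjusted p = 0.0474 by limma) and passed in none of those 6 fits (adjusted p 0.0855 to 0.142 by limma).

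Of 14 genes of MHC class I processing, 1 rose and 0 fell (7.14% higher, against 13.9% of all tested genes), with a median of 0.25. Tpp2, a cytosolic peptidase that trims proteasome products, was that gene (0.36 ± 0.07, adjusted p = 0.0238 by limma). Of the 6 fits without 1 mouse it passed in that without KO 3, and the others gave adjusted p of 0.0535 to 0.0883 by limma. After median-ratio rescaling 0 of the 14 passed. Of 15 tested genes of interferon-gamma signalling, 9 rose and 0 fell (60% higher, against 13.9% of all tested genes), with a median of 0.46. The largest were the chemokines Cxcl10 (1.23 ± 0.19) and Cxcl9 (1.14 ± 0.20), the GTPase Gbp2 (1.18 ± 0.14) and the transcription factor Irf8 (0.81 ± 0.15), with adjusted p of 0.0148, 0.0187, 0.00853 and 0.0213 by limma. Gbp2 passed in all 6 fits without 1 mouse. Cxcl10 did not pass without Control 2 or Control 3 (0.0574 to 0.0578), Cxcl9 without any 1 Control (0.0513 to 0.0680), and Irf8 without any 1 mouse other than KO 3 (0.0546 to 0.0732). After median-ratio rescaling 5 of the 15 were higher, against 7.57% of all tested genes. Ifng itself was listed at 0.101 FPKM in KO 2 and at 0 in the other livers. Whether the inducible proteasome genes changed less than the interferon-gamma list was not tested.

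Markers of several cell types were examined in the same way. Of 4 leukocyte markers all 4 rose (100%, against 13.9% of all tested genes). They summed to 23.4 to 43.5 FPKM in KO livers, against 13.2 to 15.2 FPKM in Control livers. Of 7 macrophage markers 4 rose (57.1%, against 13.9%), with sums of 284 to 513 FPKM in KO livers, against 160 to 245 FPKM in Control livers. After median-ratio rescaling 2 of the 4 leukocyte and 3 of the 7 macrophage markers were higher, against 7.57% of all tested genes. Coro1a, Ptprc and Adgre1 did not pass after this rescaling (adjusted p 0.0536 to 0.0591 by limma). Among the KO livers, KO 3 had the lowest sum in both lists. Of 6 hepatocyte markers 2 fell, Alb and Ttr (33.3%, against 2.61% of all tested genes). Among the leukocyte and macrophage markers, Mpeg1 passed in all 6 fits without 1 mouse, Laptm5 in 3 and the other 6 in 1, that without KO 3; Alb and Ttr also passed in that 1 alone. The 9 markers of T or NK cells were all under the filter, with sums of 1.39 to 3.38 FPKM in KO livers, against 0.970 to 1.56 FPKM in Control livers, and so were the 5 markers of B cells, with 1.57 to 4.13 FPKM in KO livers, against 1.19 to 2.04 FPKM in Control livers. Of 5 neutrophil markers 2 were tested, and S100a8 rose (50%, against 13.9% of all tested genes). S100a8 passed in 1 of 6 fits without 1 mouse, that without KO 3, and Ly6g was listed at 0 in every liver. Of 5 dendritic cell markers 2 were tested, and Itgax rose (50%, against 13.9% of all tested genes). Clec9a, the other one tested, overlapped between the groups and did not pass (0.37 ± 0.17, adjusted p = 0.169 by limma). Pecam1 and Stab2 rose of 4 endothelial markers (50%, against 13.9% of all tested genes). Itgax did not pass without KO 2, Control 2 or Control 3 (adjusted p 0.0507 to 0.0549 by limma), and Pecam1 and Stab2 passed in 1 of the 6 fits, that without KO 3. The part of these cell types in the proteasome values was not tested, and in bulk RNA a change in the number of cells and a change in RNA per cell cannot be told apart.

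**Figure D4:**
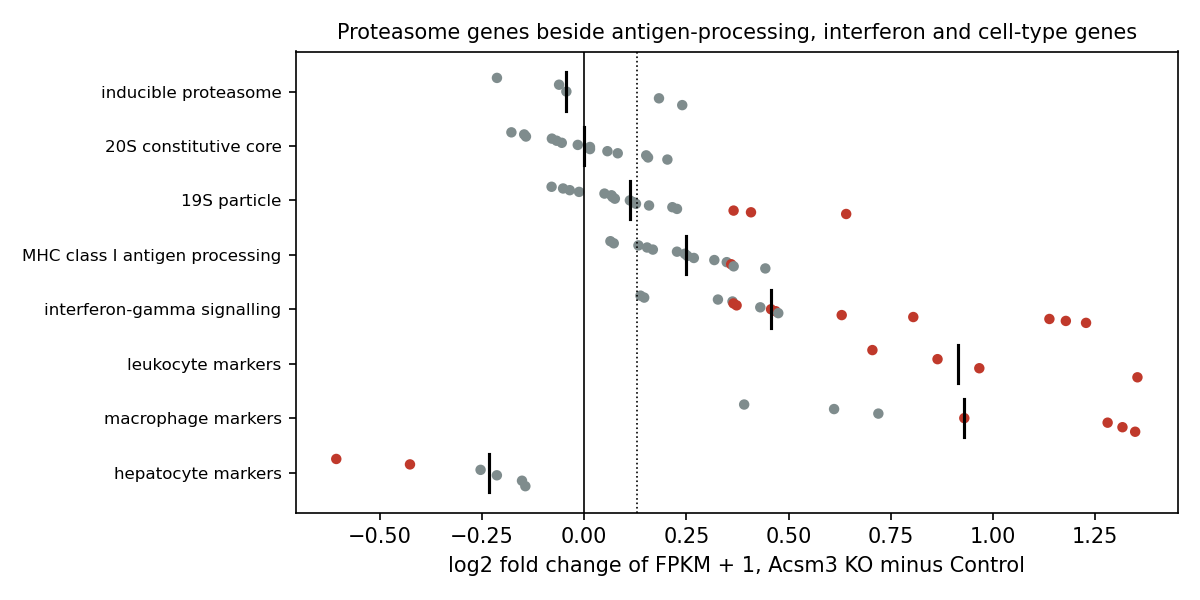
Log2 fold change of FPKM + 1 (x axis, Acsm3 KO minus Control) of each tested gene in 8 lists, with red for genes that passed at an adjusted p under 0.05, a black bar for the list's median, a solid line at 0 and a dotted line at the median of all tested genes (0.13). The inducible proteasome genes (median -0.04) and the 20S core (-0.00) lie around 0, while the interferon-gamma list (0.46) and the leukocyte markers (0.92) lie to the right.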

How the data were processed

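RNA of 6 livers was sequenced after mRNA enrichment, per the labels' protocols. The authors deposited FPKM per gene for all 6 libraries. The submitters' processing notes list GRCm38, StringTie 1.3.0, Bowtie2 2.2.6 and HISAT2 2.0.4, with no role for each. Strandedness and the counting of shared fragments: not given in the sources used here. Columns were matched to samples by title, and replicates are separate mice.

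Values were taken as log2(FPKM + 1), and limma 3.58.1 (R 4.3.3; eBayes with a trend after lmFit) was run on the 10996 genes averaging 1 FPKM or more, KO minus Control, with Benjamini-Hochberg adjustment over all of them and a threshold of 0.05. Intervals are limma's 95% intervals. Depth was estimated from the steps between low FPKM: of values below 20 fragments, 98.0% to 98.1% were whole to within 0.1. The recovered fragments summed to 103% of these totals, so the totals are estimates, and they limit the precision of low genes. Subunit ratios were compared with exact permutation tests (scipy 1.17.1). Exon positions, overlaps and 50-base windows shared between genes came from GENCODE M21 (28374 identifiers found, 27170 at the same position), and promoters from RefSeq. The procedure was also run on simulated data with independent noise for each gene and mouse. That simulation held no shift between libraries and no deviations shared by mice, so it cannot show how the calls behave under these. Alternatives covered pseudocounts, filters, rescaling, the eBayes settings, array weights, a replicate block, leaving out each mouse and voom.

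The members and lists were chosen with earlier results of these data known. Named genes were the 5 inducible genes, the other members that passed or had the largest change in their role, those not tested, and up to 4 passing genes of each list. Psmb1, Psmb4, Psmb6, Psmd2, Psmd14 and others were named as members; Nfe2l1 was chosen after its values were seen.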

Additional observations from a re-analysis of the deposited data

How the results depend on the processing

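With 3 mice a group, small differences may be missed, and fits without 1 mouse have less power. Over all genes, 1532 were higher and 287 lower. Higher calls came to 544 with no filter, 848 with a filter at a mean of 5 FPKM, 830 after median-ratio rescaling, 2582 after rescaling to a common sum, 752 after quantile normalization and 2742 with array weights. Lower calls came to 106 with no filter, 735 after median-ratio rescaling, 603 after quantile normalization and 537 with array weights. voom on recovered fragments, chosen after seeing the data, gave 978 higher and 803 lower. Without 1 mouse there were 223 to 1987 higher and 55 to 284 lower.

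Of the members outside the 5 inducible genes, chaperones and other activators included, 42 were tested. Of these, 4 were called higher (9.52%, against 13.9% of all tested genes). This count came to 2 with no filter (against 544 over all genes), 1 after median-ratio rescaling (830) and 8 after rescaling to a common sum (2582). It came to 1 after quantile normalization (752), 7 with array weights (2742) and 1 with voom (978). A filter at a mean of 5 FPKM gave 4 with other members, since Psmd5 was not tested and Psmd14 passed (adjusted p = 0.0498 by limma). Rescaling to a common sum added Psmd2, Psmd14, Psme3 and Psma1, and array weights added Psmd2, Psmd14 and Psme3. Those called lower, 0 in all, came to 2 after median-ratio rescaling (Psmb3 and Psmd9, against 735 over all genes). They came to 1 after quantile normalization (Psmd9, against 603) and 3 with voom (Psmb3, Psmb6 and Psmd9, against 803). Without 1 mouse 0 to 3 were called higher, against 223 to 1987 over all genes. Whether these counts differ from those over all genes was not tested. The cause of these shifts was not tested. No inducible gene was called higher or lower under any alternative run. The log2 ratio changed sign without 1 mouse for Psmb10 over Psmb7 (-0.17 to 0.17) and for Psmb8 over Psmb5 (-0.28 to 0.33), and for Psmb9 over Psmb6 it kept its sign (0.28 to 0.67).

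Same-numbered mice deviated together at correlations of 0.111, 0.0918 and 0.187, and each correlated best with its own number. Pairs of different numbers lay between -0.178 and 0.0733. The labels do not say what the number stands for, and whether same-numbered mice share a batch was not tested. A replicate block gave 1672 higher and 346 lower genes. Among them were 3 higher and 0 lower members outside the inducible set, and 0 inducible genes higher. Psmd5 was at adjusted p = 0.0584 by limma with this block, and at 0.0508 without the eBayes trend.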
